A study of Homo sapiens with 16 samples.

Results

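The genes described here encode caspases, other parts of the mitochondrial route to caspase activation, and members of the inhibitor of apoptosis family. They are APAF1, CYCS, CASP9, CASP8, DIABLO, XIAP, BIRC2 and BIRC5. They were picked by their symbols from the deposited expression table, in which all 8 were found among 23260 gene symbols, and all 8 passed the filter on low values that left 13426 genes. The tumors were xenografts of A375, a melanoma cell line of human origin that carries mutant BRAF, in NOG mice (NOD/Scid/IL2γR-/-), a strain with few lymphoid cells, and each mouse bore a tumor on either flank. The 16 tumors came from 8 mice, and each of the 4 groups held 4 tumors from 2 mice on day 5 of treatment. The J+V group received JQ1 and Vemurafenib together, the J group received JQ1, an inhibitor of BET bromodomain proteins, the V group received Vemurafenib, an inhibitor of mutant BRAF, and the control group received vehicle. JQ1 was given at 50 mg/kg daily and Vemurafenib at 25 mg/kg per dose with 2 doses a day, by intraperitoneal injection. All tumors derive from 1 cell line, and both tumors of a mouse shared the host and the injections, so that the groups compare 2 mice with 2 mice.

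When mitochondria release cytochrome c, it binds APAF1, and the wheel-shaped complex that forms, the apoptosome, activates caspase-9, which in turn cleaves the executioner caspases. Death receptors reach the same executioners through caspase-8. Inhibitor of apoptosis (IAP) proteins share a zinc-binding BIR domain. XIAP blocks caspases directly, cIAP1 (the product of BIRC2) is a ubiquitin ligase of receptor signaling, and SMAC (the product of DIABLO) leaves the mitochondria with cytochrome c and displaces IAPs from caspases. Survivin, the product of BIRC5, is an IAP family member that is made mainly in dividing cells and works in mitosis as part of the chromosomal passenger complex. These proteins are regulated largely by release, cleavage and degradation, which an RNA level does not show.

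The values were FPKM, which divide the fragments of a gene by its length and by the size of the library, so that levels can be set side by side between genes. Over all symbols the FPKM of a tumor summed to 970443 to 1406986. The reads behind each value are unknown, so no counting interval was given. Differences were tested with limma on log2(FPKM + 0.5) over all genes kept, and a gene was called at a Benjamini-Hochberg adjusted p below 0.05. The group differences are bulk values, in which fewer cells of a type and less RNA per cell cannot be told apart. Melanocyte genes SOX10, MITF, MLANA and S100B were measured, while PMEL, TYR and DCT were below the filter and DCT was listed at 0 in every tumor. Within their groups, tumors 16L (V) and 5R (control) stood apart from the others along the first principal component, which held 14.1% of the variation within groups, and 2L (control) lay at the opposite end. Results that rest on 16L and 5R are given with and without them. Values are listed in the order of tumors 33L, 33R, 34L and 34R for J+V, 26L, 26R, 29L and 29R for J, 16L, 16R, 19L and 19R for V, and 2L, 2R, 5L and 5R for control, where the digits name the mouse and the letter the flank.

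In the tumors of the J+V group, 4 of the 8 genes were called lower than in control tumors and 0 were called higher. The genes called were BIRC5, CYCS, DIABLO and APAF1, and none of the others had an unadjusted p below 0.05. Among all genes fitted, 20.5% were called lower and 16.6% higher in the same comparison. With the FPKM of each tumor scaled to a common sum, 4726 genes were called lower and 820 higher, in place of 2756 and 2223, and the median of all genes moved to -0.22. For the 8 genes the median log2 fold change was -0.39 as fitted, against -0.03 for all genes. In J+V tumors these 4 genes were each below all 12 other tumors, a pattern that 6.09% of all genes showed. Neither drug alone gave a call. CASP8, CASP9, XIAP and BIRC2 did not pass the test in any comparison. The plot of FPKM by tumor shows the spread of each gene.

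**Figure D1:**
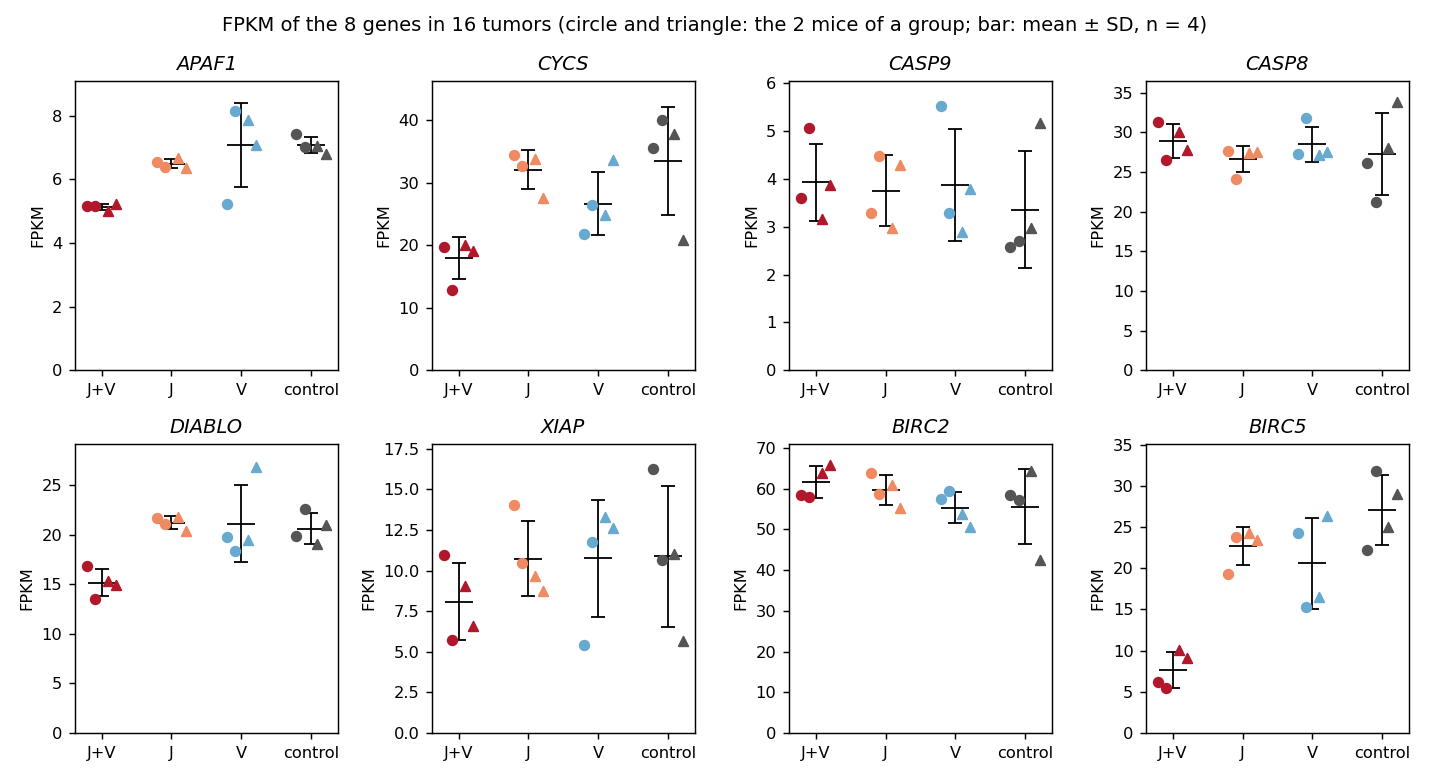
FPKM (vertical axes, starting at 0) of the 8 genes in each tumor of the J+V, J, V and control groups, with circles and triangles for the 2 mice of a group and a bar with whiskers for the mean ± SD (n = 4). For BIRC5 the J+V tumors lie between 5.48 and 10.01 FPKM, below the lowest other tumor at 15.3 FPKM, while the groups overlap for CASP8, CASP9, XIAP and BIRC2.

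The upstream regions of APAF1 and CYCS are shown because both genes were lower in J+V tumors and each has a single start site window in the RefSeq table (GRCh38.p14). A window of 300 bases runs from upstream of the start to shortly after it. The table held windows for 7 of the 8 genes, and BIRC5 was not among them. Capitals mark motifs on either strand. These are the CCAAT box, the Sp1 box with the letters GGGCGG, an E2F-like core with the letters TTGGCGC, and an NRF1 core with the letters GCGCATGC. The motifs were chosen with the sequences in view.
APAF1, chr12:98645040-98645339, plus strand: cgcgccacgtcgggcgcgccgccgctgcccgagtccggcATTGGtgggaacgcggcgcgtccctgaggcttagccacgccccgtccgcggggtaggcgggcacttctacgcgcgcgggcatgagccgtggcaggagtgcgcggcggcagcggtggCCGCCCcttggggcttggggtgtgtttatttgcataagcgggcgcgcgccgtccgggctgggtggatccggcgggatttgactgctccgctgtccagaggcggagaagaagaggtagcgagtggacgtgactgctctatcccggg
CYCS, chr7:25125211-25125510, minus strand: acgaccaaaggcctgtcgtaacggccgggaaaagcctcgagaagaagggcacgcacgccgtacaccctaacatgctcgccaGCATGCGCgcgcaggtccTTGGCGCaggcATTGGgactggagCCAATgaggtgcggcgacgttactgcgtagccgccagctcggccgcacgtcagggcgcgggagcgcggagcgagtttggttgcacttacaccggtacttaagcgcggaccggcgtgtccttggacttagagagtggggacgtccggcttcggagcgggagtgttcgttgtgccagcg
The CYCS window held the NRF1 core, the E2F-like core and CCAAT in both orientations, and no Sp1 box. APAF1 had CCAAT and an Sp1 box, each on the opposite strand, and neither of the other motifs. Of all 35116 windows of this length, 3.05% held the NRF1 core, 3.04% the E2F-like core, 34.6% CCAAT and 45.0% the Sp1 box. Another motif searched, TGACGTCA (a CREB site), was present once in BIRC2, at a position that its 2 overlapping windows share, in no window of the other genes matched, and in 1.85% of all windows. Neither printed window held 3 further motifs searched, the E2F core TTCCCGC (6.55% of all windows), the cell cycle element TTTGAA (15.2%) and the E-box CACGTG (7.26%). No motif overlapped another in the regions printed, and the matches are a description of letters only.

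APAF1, the scaffold of the apoptosome, lies on chromosome 12 from 99039068 to 99129211 on the plus strand (GRCh37, as are the positions that follow), where the antisense gene ANKS1B overlaps it. It had 5.17, 5.15, 5.00 and 5.22 FPKM in J+V tumors, 6.54, 6.40, 6.68 and 6.36 in J tumors, 5.24, 8.17, 7.88 and 7.09 in V tumors and 7.42, 7.04, 7.04 and 6.80 in control tumors. The J+V tumors were the 4 lowest of the 16 and nearly equal, with a coefficient of variation of 1.84%, but the lowest V tumor, 16L, stood at 5.24 FPKM beside 5.22 FPKM in the highest J+V tumor. APAF1 fell by 0.43 on the log2 scale in J+V against control (SE 0.10, adjusted p = 0.00386). Against J the log2 difference was -0.31 (SE 0.10, adjusted p = 0.0292), and this call was lost in 13 of 37 alternatives, among them with 1 mean per mouse, with upper quartile scaling or quantile normalization, without any 1 of the J tumors, without J+V tumor 33L or control tumor 5L, and without any J or J+V mouse (adjusted p up to 0.158). Against V it was -0.41 (SE 0.10, adjusted p = 0.0145), and this call was lost in 6 of 37, with 1 mean per mouse, with only the groups compared, and without V tumor 19R, control tumor 5L, V mouse 19 or J+V mouse 33 (adjusted p up to 0.137). In J alone the level was 6.49 ± 0.146 FPKM, against 7.08 ± 0.256 in control (SD, n = 4 each), and the log2 difference of -0.11 had a 95% interval from -0.32 to 0.09.

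CYCS encodes cytochrome c (chromosome 7, 25158275 to 25164879, minus strand). Its FPKM was 19.8, 12.9, 20.1 and 19.0 in J+V tumors, 34.3, 32.6, 33.8 and 27.5 in J tumors, 21.8, 26.4, 24.8 and 33.6 in V tumors and 35.5, 40.0, 37.7 and 20.8 in control tumors. The control tumor 5R lay at the level of J+V tumors, far below the other 3 control tumors, and V tumors lay between the J+V group and most control tumors. CYCS fell by 0.86 on the log2 scale in J+V against control (SE 0.19, adjusted p = 0.00257), which is 0.550 of the control level. Against J the log2 difference was -0.84 (adjusted p = 0.00497, 0.0597 without mouse 26 of the J group). Against V it was -0.56 with a 95% interval from -0.96 to -0.17 and missed the threshold (adjusted p = 0.0581), though it passed in 9 of 37 alternatives, among them those without control tumor 2L, 2R or 5R, without J+V tumor 34L, without either control mouse, and without 16L and 5R (adjusted p down to 0.0152). V against control differed by -0.30 (95% interval -0.70 to 0.10). CYCS has 42 annotated processed pseudogenes, of which 1 is in the deposited table under its own symbol, and how reads shared between such copies were assigned is not stated, so its level is uncertain.

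CASP9, the initiator caspase that the apoptosome activates (chromosome 1, 15817327 to 15853029, minus strand, overlapped by the antisense gene CELA2B), had the lowest level of the 8 genes in every group. There were 3.603, 5.06, 3.17 and 3.88 FPKM in J+V tumors, 3.28, 4.48, 2.97 and 4.30 in J tumors, 5.54, 3.28, 2.89 and 3.80 in V tumors and 2.58, 2.71, 2.98 and 5.17 in control tumors. The highest 2 tumors were 16L and 5R, from the V and the control group, and all groups overlapped. The log2 difference between J+V and control was 0.23 with a 95% interval from -0.21 to 0.67 (adjusted p = 0.406). Without 16L and 5R, a setting chosen after seeing the data, it was 0.43 and was called (adjusted p = 0.0452). In that setting 40.4% of all genes were called in this comparison. It kept 2L, which lay at the opposite end of the first principal component and had the lowest CASP9 of the control tumors.

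CASP8, the initiator caspase of death receptors (chromosome 2, 202098166 to 202226559, plus strand, overlapped by the antisense gene FLACC1 and by a non-coding RNA gene on its own strand), had group means that spanned only 26.6 to 28.9 FPKM. It had 31.3, 26.5, 30.1 and 27.7 FPKM in J+V tumors, 27.6, 24.1, 27.4 and 27.5 in J tumors, 27.3, 31.9, 27.2 and 27.5 in V tumors and 26.2, 21.2, 28 and 33.8 in control tumors. Both the lowest and the highest value belonged to the control group. J+V differed from control by 0.10 on the log2 scale (95% interval -0.14 to 0.33, adjusted p = 0.505). It was called higher only without mouse 5 of the control group (log2 difference 0.29, adjusted p = 0.0426). With the FPKM of each tumor scaled to a common sum the difference was -0.12, so that its sign changed with the scaling.

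DIABLO, which encodes the IAP antagonist SMAC (chromosome 12, 122692210 to 122712003, minus strand, overlapped by the antisense gene B3GNT4 and by 2 protein-coding genes on its own strand that the annotation lists without a symbol), gave 16.9, 13.5, 15.3 and 14.99 FPKM in J+V tumors, 21.7, 21.1, 21.8 and 20.4 in J tumors, 19.8, 18.4, 19.5 and 26.9 in V tumors and 19.9, 22.6, 19.0 and 21.1 in control tumors. All J+V tumors were lower than the lowest of the other 12, a V tumor at 18.4 FPKM. DIABLO fell by 0.43 on the log2 scale in J+V against control (SE 0.10, adjusted p = 0.00395), by 0.48 against J (adjusted p = 0.00362) and by 0.45 against V (adjusted p = 0.00993). How reads shared with the overlapping genes were assigned is not stated. The call against V was lost without V mouse 19 or J+V mouse 33, with 1 mean per mouse and with only the groups compared (adjusted p up to 0.0631). J and V tumors were at 21.3 ± 0.684 and 21.1 ± 3.89 FPKM, against 20.6 ± 1.54 in control tumors (SD, n = 4 each). The 95% intervals of their log2 differences from control ran from -0.17 to 0.26 for J and from -0.19 to 0.23 for V.

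XIAP, the IAP that binds and blocks caspases (chromosome X, 122993562 to 123047822, plus strand, overlapped by the antisense gene XIAP-AS1), varied most among tumors of a group. Its FPKM was 10.9, 5.71, 9.08 and 6.58 in J+V tumors, 14.1, 10.5, 9.65 and 8.75 in J tumors, 5.41, 11.7, 13.3 and 12.6 in V tumors and 16.3, 10.6, 11.01 and 5.63 in control tumors. The coefficient of variation was 29.5% in J+V tumors, 21.7% in J, 33.6% in V and 39.9% in control, and the lowest tumors of the V and control groups were 16L and 5R. The log2 difference between J+V and control was -0.36 with a 95% interval from -0.999 to 0.27 (adjusted p = 0.358). Without 16L and 5R, a setting chosen after seeing the data, it was -0.63 and was called (adjusted p = 0.0326). In that setting 40.4% of all genes were called. It kept 2L, which lay at the opposite end of the first principal component and had the highest XIAP of the control tumors. The level of DIABLO, which displaces XIAP from caspases, was 1.97 ± 0.415 times that of XIAP in J+V tumors, 2.04 ± 0.354 times in J, 2.21 ± 1.01 times in V and 2.20 ± 1.09 times in control tumors (SD, n = 4 each), and these ranges overlapped. XIAP has 3 annotated pseudogenes, and its level carries the same uncertainty as that of CYCS.

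Within groups, XIAP was low in the tumors in which CASP9 was high. Over the 16 tumors the deviations of both genes from their group means had a Pearson r of -0.84 and a Spearman rho of -0.66, and r was -0.65 over the 14 tumors without 16L and 5R. CYCS followed XIAP, with r = 0.74, and r was 0.54 without 16L and 5R. These correlations describe tumors that share mice in pairs. The same deviations of XIAP had r = -0.92 with the first principal component of all genes, so that XIAP moved within groups with many other genes. The 16L deviation was -0.85 for XIAP and 0.50 for CASP9, and 5R had -0.80 and 0.60.

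**Figure D2:**
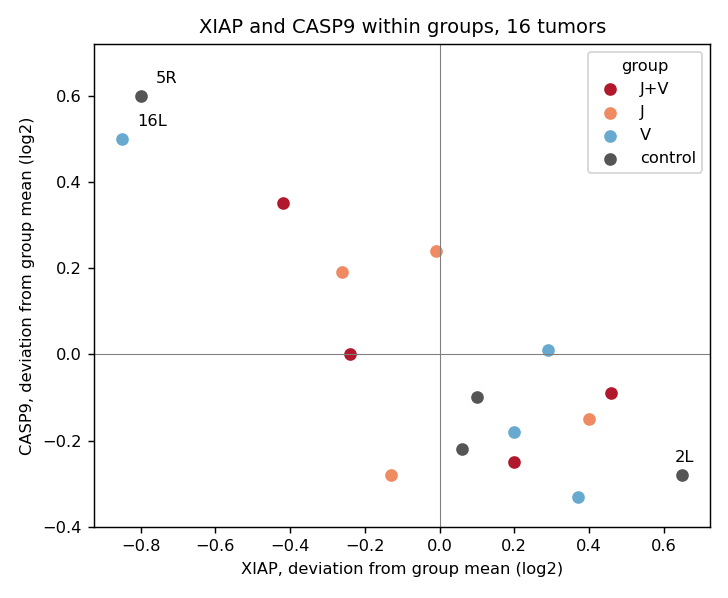
Deviation of XIAP (horizontal axis) and CASP9 (vertical axis) from the mean of their group on the log2 scale, 1 point for each of the 16 tumors, colored by group. Tumors 16L and 5R lie at the upper left, with XIAP low and CASP9 high, and Pearson r is -0.84.

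BIRC2 (chromosome 11, 102217942 to 102249401, plus strand) had the highest level of the 8 genes in all groups. It reached 58.4, 58.1, 63.9 and 65.9 FPKM in J+V tumors, 63.9, 58.6, 60.8 and 55.3 in J tumors, 57.4, 59.3, 53.9 and 50.7 in V tumors and 58.4, 57.2, 64.4 and 42.6 in control tumors. The groups overlapped, and 5R was the lowest tumor. The log2 difference between J+V and control was 0.16 (95% interval -0.06 to 0.37, adjusted p = 0.227). It was called higher with quantile normalization (adjusted p = 0.0378) and was -0.06 with a common sum per tumor.

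BIRC5, which encodes survivin (chromosome 17, 76210267 to 76221717, plus strand), showed the largest difference of the 8 genes. Its FPKM was 6.15 and 5.48 in the tumors of J+V mouse 33 and 10.01 and 9.06 in those of mouse 34. In J tumors it was 19.3, 23.8, 24.3 and 23.4, in V tumors 24.3, 15.3, 16.5 and 26.3, and in control tumors 22.2, 31.8, 24.95 and 29.0. Every J+V tumor was below every other tumor, and the V tumors split into 2 that reached the control range and 2 below it, with 1 of each in either V mouse. BIRC5 averaged 7.67 ± 2.20 FPKM in J+V tumors, 22.7 ± 2.30 in J, 20.6 ± 5.52 in V and 27.0 ± 4.25 in control tumors (SD, n = 4 each). It fell by 1.78 on the log2 scale in J+V against control (SE 0.19, adjusted p = 3.31e-05), which is 0.292 of the control level. It also fell by 1.54 against J (adjusted p = 0.000163) and by 1.37 against V (adjusted p = 0.00114). These 3 calls were made in all 37 alternatives.

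Among the 8 genes the order of levels in control tumors was BIRC2, CYCS, CASP8, BIRC5, DIABLO, XIAP, APAF1 and CASP9. Between neighbors in this order, the ranges of the control tumors were free of overlap only from BIRC2 to CYCS, DIABLO to XIAP and APAF1 to CASP9. In the J+V group CYCS stood below CASP8 with no overlap, and BIRC5, at 7.67 FPKM, stood beside XIAP at 8.08 FPKM.

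J against control and V against control gave calls for 0 of the 8 genes, and 0% of all genes were called in each. These counts over all genes rest on single tumors. Without control tumor 5R, 101 genes were called in J and 423 in V, and without V tumor 19R 177 were called in V. None of the 8 was among them. At an unadjusted p below 0.05, the only tool run (limma) counted 1140 and 2160 of all genes in these comparisons and 0 of the 8 in both. BIRC5 was nearest in V, with a log2 difference of -0.41 (95% interval -0.82 to 0.00, adjusted p = 0.314). Against J, the J+V group had 4 of the 8 genes called lower and 0 higher, where 18.4% and 8.67% of all genes were. Against V it had 3 lower and 0 higher, where 8.31% and 4.99% of all genes were. J against V gave 0 calls among the 8, with 0 at an unadjusted p below 0.05 in limma, while 0.283% of all genes were called. These comparisons share tumors, so their counts are not independent of each other.

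**Figure D3:**
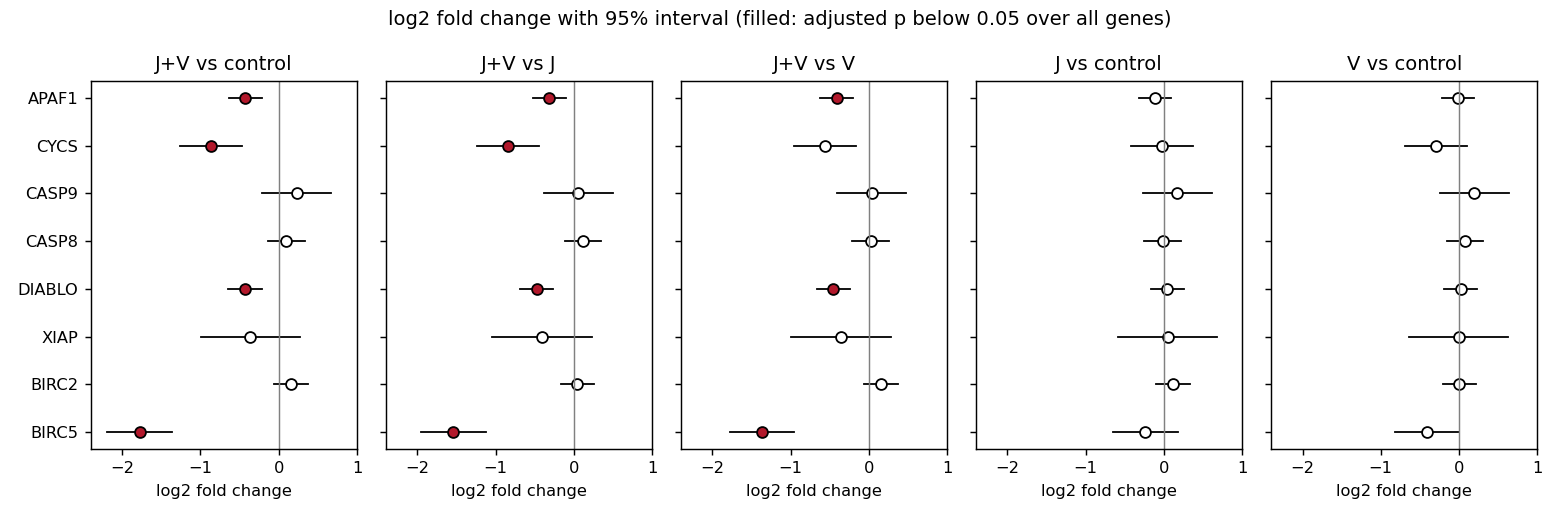
log2 fold changes (horizontal axes, on log2(FPKM + 0.5)) with 95% intervals for the 8 genes in 5 comparisons, filled where the adjusted p over all genes was below 0.05. BIRC5 lies at -1.78, -1.54 and -1.37 in the 3 comparisons of J+V, and no point is filled for J or V against control.

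A further contrast asked whether J+V differed from the J and V effects added on the log2 scale. This departure was called for 0 of the 8 genes and for 0% of all genes, while 1693 of all genes and 3 of the 8 had an unadjusted p below 0.05 in limma. The 3 were BIRC5 (-1.13, 95% interval -1.71 to -0.55, adjusted p = 0.129), DIABLO (-0.50, 95% interval -0.80 to -0.20, adjusted p = 0.170) and APAF1 (-0.30, 95% interval -0.59 to 0.00, adjusted p = 0.393). For BIRC5 the departure was called without J+V tumor 34L (-1.28, adjusted p = 0.0398) and without J+V mouse 34 (-1.47, adjusted p = 0.00786). In these settings 0.934% and 2.7% of all genes were called, in that order.

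The other subunits of the chromosomal passenger complex fell with BIRC5 in J+V tumors, all 3 of 3, where 20.5% of all genes were called lower. AURKB, the kinase of the complex, had 5.13, 3.74, 7.31 and 6.84 FPKM in J+V tumors, against 16.2, 23.7, 18.5 and 19.0 in control tumors (log2 fold change -1.70, adjusted p = 3.80e-05). CDCA8, which encodes borealin, had 4.02, 3.49, 5.19 and 5.51 FPKM in J+V tumors, against 13.6, 18.9, 14.1 and 16.8 in control tumors (log2 fold change -1.70, adjusted p = 1.91e-05). INCENP, the scaffold that binds the kinase, had 4.15, 4.34, 5.01 and 4.64 FPKM in J+V tumors, against 8.59, 8.45, 8.48 and 10.5 in control tumors (log2 fold change -0.91, adjusted p = 5.08e-05). For each of them the J+V tumors lay below all 12 other tumors, a pattern that 6.09% of all genes showed. The level of BIRC5 was 1.34 ± 0.110 times that of AURKB in J+V tumors, 1.41 ± 0.0758 times in J, 1.63 ± 0.181 times in V and 1.40 ± 0.0889 times in control tumors (SD, n = 4 each). Relative to CDCA8 it was 1.67 ± 0.18 in J+V tumors, 1.64 ± 0.117 in J, 1.73 ± 0.239 in V and 1.7 ± 0.0582 in control tumors. Relative to MKI67, a marker of cycling cells, it was 0.570 ± 0.0753 in J+V tumors, 0.955 ± 0.0723 in J, 0.847 ± 0.285 in V and 1.02 ± 0.223 in control tumors. In the ratio to MKI67 the J+V and control tumors did not overlap, but J+V tumors (0.465 to 0.642) and V tumors (0.568 to 1.17) did.

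**Figure D4:**
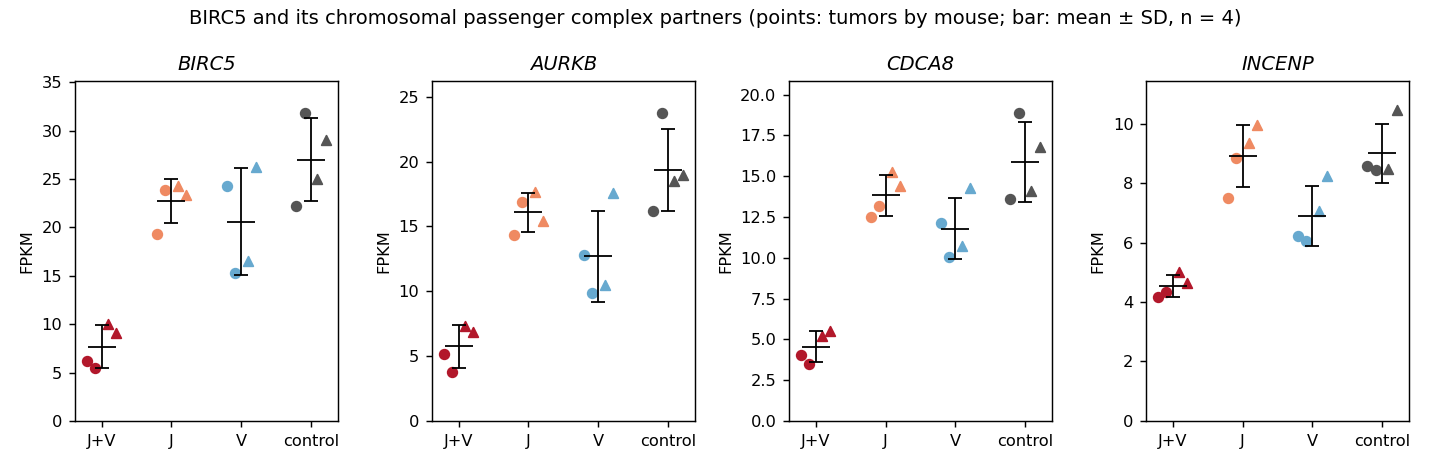
FPKM (vertical axes, starting at 0) of BIRC5, AURKB, CDCA8 and INCENP by group, with circles and triangles for the 2 mice of a group and a bar with whiskers for the mean ± SD (n = 4). The J+V tumors lie lowest in all panels, as for AURKB with 3.74 to 7.31 FPKM, against 16.2 to 23.7 FPKM in control tumors.

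All 12 of 12 G2/M genes fell in J+V against control, where 20.5% of all genes were called lower, and their median log2 fold change was -1.46. The largest were PLK1 (-2.04), a mitotic kinase, UBE2C (-1.87), a ubiquitin-conjugating enzyme of the anaphase-promoting complex, and CDC20 (-1.75), its activator. MKI67, the least changed of the 12, had 10.3, 9.52, 21.5 and 14.1 FPKM in J+V tumors, against 27.8, 30.0, 27.4 and 22.1 in control tumors (log2 fold change -0.99, adjusted p = 0.00149). The part of a change in the share of dividing cells in the BIRC5 values was not tested. Over the 16 tumors and among 8737 genes with a mean FPKM of at least 5, the genes most like BIRC5 were SPC24 (Pearson r = 0.990), a kinetochore subunit, CDCA8 (0.988), KIF2C (0.987), a mitotic kinesin, and the histone genes HIST1H3C (0.987) and HIST1H2AM (0.985). The histone genes have near-identical copies and are uncertain. DIABLO was most like PFN1 (0.938) and TACO1 (0.928), CYCS most like CDC5L (0.977) and SOAT1 (0.973), and APAF1 most like ZC3HAV1 (0.905) and PELO (0.895). For XIAP they were ZDHHC20 (0.987) and ATM (0.986), for CASP9 EDEM2 (0.903) and INPP5K (0.898), for BIRC2 PPWD1 (0.947) and ERGIC2 (0.941), and for CASP8 TMEM110 (0.823) and ID2 (0.795). These r values include the differences between groups.

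Of the 5 other IAP genes 3 passed the filter, and 2 rose in J+V against control while 0 fell. Among all genes fitted, 16.6% were called higher and 20.5% lower in this comparison. NAIP, whose product senses bacterial proteins in macrophages, had 17.0, 20.8, 14.5 and 16.9 FPKM in J+V tumors, against 10.6, 8.51, 9.99 and 9.06 in control tumors (log2 fold change 0.82, adjusted p = 0.000292). All J+V tumors exceeded all control tumors, and the call was made in all 37 alternatives. NAIP lies in a duplicated region with near-identical copies, so its level is uncertain. BIRC6, a large IAP with ubiquitin-conjugating activity, differed by 0.17 (adjusted p = 0.0465), a call made in 15 of 37 alternatives, and its difference was -0.05 with a common sum per tumor. BIRC8 was listed at 0 in every tumor.

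The IAP antagonists other than DIABLO had 3 of 4 genes past the filter, with KIAA0317 in the table for AREL1, and in J+V against control limma called 0, with 0 at an unadjusted p below 0.05. With a common sum per tumor, HTRA2, a mitochondrial protease, and KIAA0317 were called lower, as were 4726 of all 13426 genes. XAF1, which binds XIAP, was named after its values were seen. It had 7.26, 7.17, 5.90 and 7.83 FPKM in J+V tumors, against 6.78, 30.3, 19.9 and 15.6 in V tumors (log2 fold change -1.13, adjusted p = 0.0385). Control tumors had 6.95, 4.72, 14.1 and 6.87 FPKM, and J+V differed from them by -0.10 (adjusted p = 0.838). The V tumors other than 16L were thus the high ones of this comparison, and 16L, at 6.78 FPKM, lay among the J+V tumors.

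Regulators of the apoptosome fell for 4 of 7 genes in J+V against control, with 0 higher and a median of -0.31, where 20.5% of all genes were called lower. PTMA, which encodes prothymosin-alpha, an inhibitor of apoptosome formation, had a log2 fold change of -0.85 (adjusted p = 0.000264). CSE1L, which encodes a nuclear export factor that aids nucleotide exchange on APAF1, had -0.59 (adjusted p = 0.00764), a call lost without control tumor 5L, control mouse 2 or J+V mouse 33 (adjusted p up to 0.109). AVEN, which binds APAF1 and restrains it, had -0.50 (adjusted p = 0.00152). PTMA and AVEN are known as inhibitors of the apoptosome and CSE1L as a promoter of it. ANP32A, the remaining gene called, had -0.31 (adjusted p = 0.00409), a call made in all 37 alternatives.

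Death receptor genes fell for 2 of the 9 that passed the filter, of 11 in all, with 0 higher, a share close to the 20.5% of all genes called lower. With a common sum per tumor or quantile normalization, 4 of the 9 were called lower. Of all 13426 genes, 4726 and 2545 were called lower in these settings, in that order. TNFRSF10A, a receptor of TRAIL, had a log2 fold change of -0.55 (adjusted p = 0.0023), and FADD, the adaptor that recruits caspase-8, had -0.43 (adjusted p = 0.00793, 0.0559 without mouse 5). Of 11 executioner nucleases and caspase substrates 2 fell and 1 rose, where 20.5% of all genes were called lower and 16.6% higher. LMNB1, a nuclear lamin, had -1.36 (adjusted p = 6.92e-05), PARP1, a DNA repair enzyme that caspases cleave, had -0.47 (adjusted p = 0.000724), and GSN, the actin-severing gelsolin, had 1.01 (adjusted p = 0.000444). With a common sum per tumor, 8 of these 11 were called lower, as were 4726 of all 13426 genes.

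**Figure D5:**
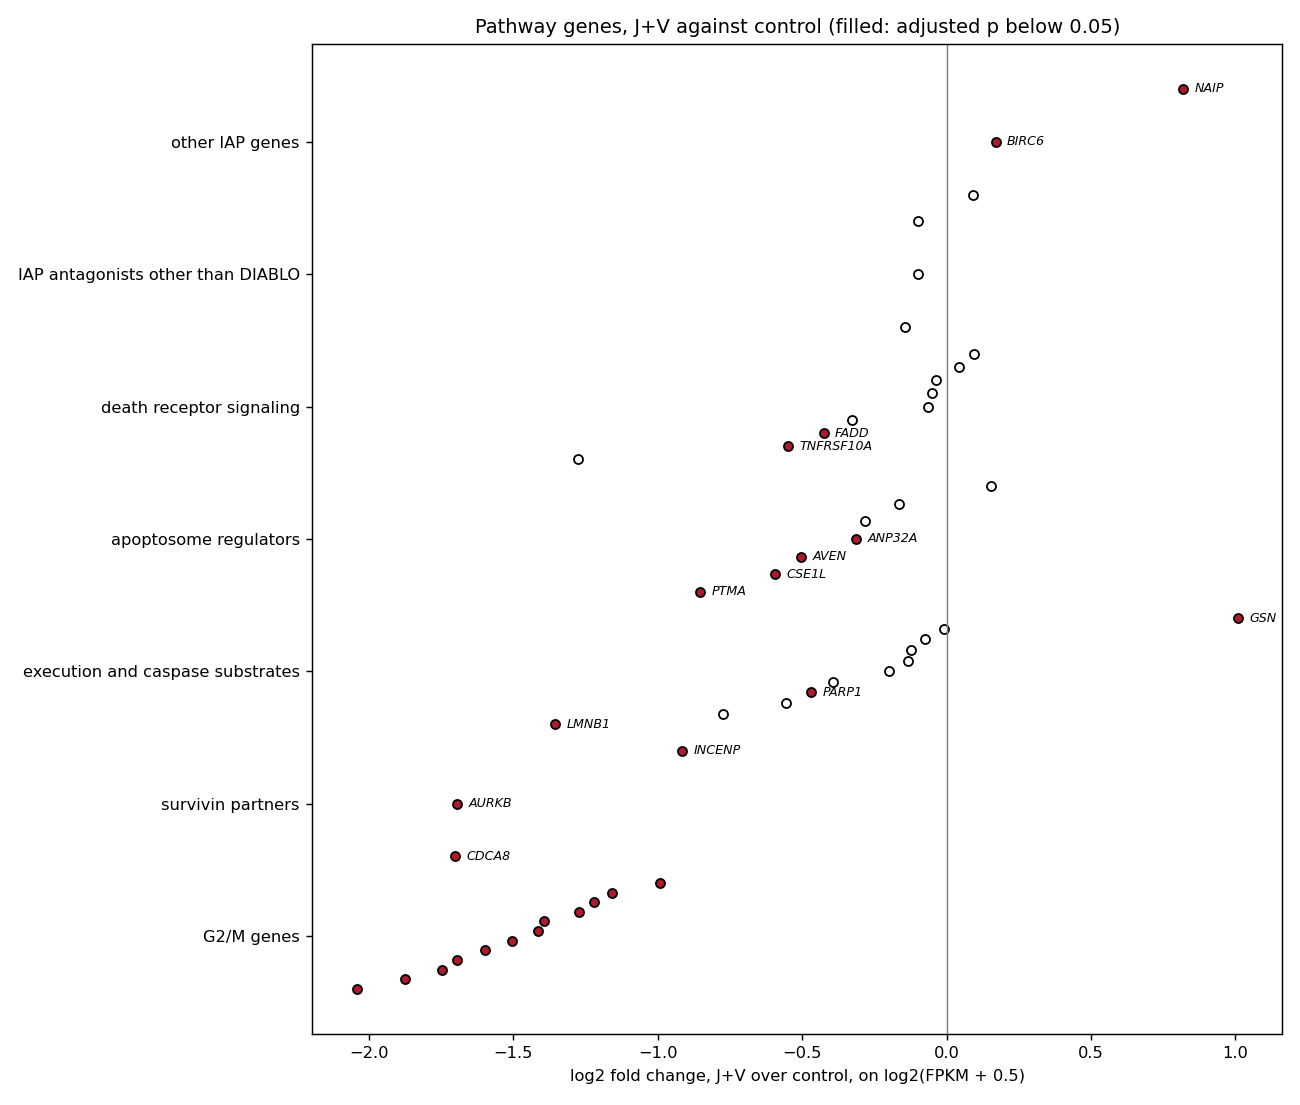
log2 fold change of J+V over control (horizontal axis, on log2(FPKM + 0.5)) for each fitted gene of 7 lists, filled where the adjusted p was below 0.05. All 12 G2/M genes and the 3 survivin partners are filled to the left of 0, while 2 of 9 death receptor genes are filled.

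Markers of other cells were read beside these values. Of 6 fibroblast markers 3 rose in J+V against control, namely DCN (1.67), LUM (1.61) and PDGFRB (0.72), where 16.6% of all genes were called higher. COL3A1 (0.50), COL1A2 (0.16) and COL1A1 (-0.16) were not called. The call of LUM was made in all 37 alternatives, and that of DCN was lost with 1 mean per mouse and without control tumor 5L, control mouse 2 or J+V mouse 34. The call of PDGFRB was lost with a common sum per tumor, with only the groups compared, and without control tumor 2R or 5L, control mouse 2, or either J+V mouse. The sum of the 6 markers was 62.4 to 114.9 FPKM in J+V tumors, against 36.2 to 121.4 FPKM in control tumors. Of 5 endothelial markers 0 passed the filter, and their sum was 0.977 to 1.94 FPKM in J+V tumors, against 0.699 to 1.20 FPKM in control tumors. Of 6 myeloid markers 2 passed and limma called 0, with 1 at an unadjusted p below 0.05, and the sum was 22.9 to 27.2 FPKM in J+V tumors, against 19.1 to 22.9 FPKM in control tumors. The other genes of this list, PTPRC, CD14, CSF1R and ITGAM, stayed below the filter. Of 7 melanocyte genes 4 passed and 2 rose, where 16.6% of all genes were called higher. These were S100B (1.68), a calcium-binding protein, and MLANA (0.55), a melanosome protein. The call of MLANA was lost with a common sum per tumor and without control tumor 5L, control mouse 5 or J+V mouse 33. SOX10 (0.38) and MITF (0.23) were not called. The sum of the 7 genes was 69.9 to 99.9 FPKM in J+V tumors, against 34.3 to 50.9 FPKM in control tumors. Most of this gap was S100B, with a mean of 54.59 FPKM in J+V tumors and 16.65 FPKM in control tumors. The means of SOX10 were 15.85 and 12.22 FPKM, of MITF 9.85 and 8.27, and of MLANA 6.46 and 4.28, in the same order. Of 3 low-MITF markers 2 fell, where 20.5% of all genes were called lower. These were SOX9 (-1.47), a transcription factor, and AXL (-1.39), a receptor kinase. The call of AXL was lost with 1 mean per mouse and without control tumor 5L, control mouse 2 or J+V mouse 33. NGFR was not called (-0.46, adjusted p = 0.296). Whether reads of mouse cells were removed is not stated, and the part of these cells in the results was not tested.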

How the data were processed

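RNA of 16 A375 xenograft tumors was sequenced after ribosomal RNA depletion with RiboZero and ScriptSeq v2 library preparation. The authors deposited FPKM for 23260 gene symbols. Per the labels, bcl2fastq, TopHat and Cufflinks were used with human build hg19, without versions. For the gene annotation, the strand setting and a removal of mouse reads, nothing was given in the sources used here. Read depth is unknown.

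Values were analysed as log2(FPKM + 0.5). The 13426 genes that reached an FPKM of 1 in 4 or more of the 16 tumors were fitted with limma 3.58.1 in R 4.3.3, with a mean-variance trend, a term for each of 4 groups, the mouse as a block (consensus correlation -0.0674) and 12 residual degrees of freedom. As this correlation was negative, the block did not widen the errors for tumors that share a mouse. In J+V against control 4979 genes were called with the block, 4598 without it and 3801 with 1 mean per mouse. P-values were adjusted by Benjamini-Hochberg over all genes fitted, and genes were called below 0.05. The study tested counts with other tools, and counts were not used here. The scripts were tested on simulated data. Columns of no sample numbered 0.

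The 8 genes and the pathway lists were chosen with earlier results of these data known. The genes named are the 8, the 3 largest changes called in J+V against control from each list, the 3 survivin partners, MKI67, and by Pearson r the 5 genes most like BIRC5 and the 2 most like each other gene. The list of other caspases is not reported here. XAF1, ANP32A, HTRA2 and KIAA0317 fall outside this rule, as do genes named only as absent or as cell markers. Alternatives covered the pseudocount, filter, scaling, mouse block, mouse means, groups fitted, flank, robust moderation and leaving out each tumor and mouse, and, added after seeing the data, tumors 16L and 5R together. Positions are from GENCODE on GRCh37. Tables and plots used the package data.table in version 1.17.8, Python 3.11.15, pandas 2.3.3, numpy 2.4.6, scipy 1.17.1 and matplotlib 3.10.9.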

Additional observations from a re-analysis of the deposited data

Results flagged for a closer look

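Within the 32 sets of 4 tumors formed by the 8 genes and 4 groups, 5 had a tumor far from the other 3 by Dixon's criterion, which chance gives in about 1 of 20. CYCS was 12.9 FPKM in J+V tumor 33R, with the nearest J+V tumor at 19.0 FPKM. DIABLO was 26.9 FPKM in V tumor 19R, with the nearest V tumor at 19.8 FPKM. CASP8 was 24.1 FPKM in J tumor 26R, with the nearest at 27.4 FPKM, and 31.9 FPKM in V tumor 16R, with the nearest at 27.5 FPKM. CASP9 was 5.17 FPKM in control tumor 5R, with the nearest control tumor at 2.98 FPKM.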

How the results depend on the processing

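The 4 calls in J+V against control were made in all 37 alternatives. The number of the 8 genes called in this comparison was 4 to 5 when a tumor or mouse was left out, and 6 without 16L and 5R, when CASP9 (higher) and XIAP (lower) were added. Against V, where 3 were called, it was 1 (BIRC5) with 1 mean per mouse and 1 with only the groups compared, and leave-outs gave 1 to 4. The lowest came without V mouse 19 and without J+V mouse 33. Against J, where 4 were called, leave-outs gave 2 to 4, the lowest without J mouse 26. The departure from additivity had 0 called, and 0 to 1 in leave-outs. J and V against control stayed at 0 of the 8 in every alternative run, and J against V likewise. No paired analysis was possible because the groups held different mice and share no replicate numbers that pair tumors. Over all genes, a common sum per tumor gave 820 higher and 4726 lower in J+V against control, in place of 2223 and 2756, 493 higher and 2658 lower against J in place of 1164 and 2464, and 2884 calls against V in place of 1786. Means per mouse gave 234 calls against V and 2257 against J, in place of 3628. With only the groups compared, calls over all genes rose to 4632 against J and fell to 890 against V. Mouse means and fits of only the groups compared rest on fewer samples. The causes of these shifts were not tested. CASP9 has the lowest level of the 8, and since read depth is unknown its counting error is too.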
